A study of Mus musculus with 3 samples.

Results

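The neutrophils of 3 mouse livers were picked out of single-cell RNA libraries by their own transcripts, and 63 of 9491 cells qualified. Barcodes counted as cells from 500 unique molecular identifiers (UMIs, each marking 1 captured transcript) and 200 genes upward, where no more than 20% of UMIs were mitochondrial. A neutrophil held at least 5 UMIs, and at least 50 per 10000 of its UMIs, of S100a8, S100a9, Retnlg, Csf3r and Cxcr2 together, and under 20 per 10000 of the Kupffer cell genes Clec4f, Vsig4 and Cd5l. The 5 genes of the rule therefore describe the cells and are no finding.

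All 3 mice were wild type (WT) and ate an iron-deficient diet (IDD, 2 to 6 ppm iron) for 1 week. One stayed on it as the control (IDD), 1 was injected intravenously with 10 mg of holo-Tf, transferrin loaded with iron (IDD+HTF), and 1 was moved for 18 h to a diet with 2% carbonyl iron (IDD+HID). Age, sex and the time from injection to collection were not given in the sources used here. Livers were digested with collagenase and pronase, and a small part of the hepatocyte suspension was added back to the other cells, so every share of cells also reflects that mixing and the digestion. Where 3 values follow each other below, they belong to IDD, IDD+HTF and IDD+HID in that order. With 1 mouse per group no test across mice was possible, no p-value is given, and all intervals are exact 95% intervals for counting error only.

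Neutrophils are short-lived white blood cells of the bone marrow that leave the blood for sites of injury or infection, drawn by chemokines such as Cxcl1 and Cxcl2 acting on the receptor Cxcr2. They fill their granules in the marrow, and the genes of those granule proteins fall silent as the cells mature, while S100a8 and S100a9, which encode the subunits of calprotectin, stay abundant. Calprotectin and lipocalin 2, encoded by Lcn2, withhold metals from microbes.

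The chemokine genes whose levels were set beside the neutrophil counts lie close together on mouse chromosome 5, and their upstream sequences are shown because both hold the same match to the NF-kB decamer, the binding motif of an inflammatory transcription factor. The sequences are the 120 bases before each start from RefSeq (GRCm38.p6, + strand), with the match in capitals. That stretch is chr5:90891125-90891244 for Cxcl1 and chr5:90903779-90903898 for Cxcl2.
Cxcl1: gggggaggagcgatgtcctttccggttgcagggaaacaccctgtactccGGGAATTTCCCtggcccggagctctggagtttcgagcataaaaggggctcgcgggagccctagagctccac
Cxcl2: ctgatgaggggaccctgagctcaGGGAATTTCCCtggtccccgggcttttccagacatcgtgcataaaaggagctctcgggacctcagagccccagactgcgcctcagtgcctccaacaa
The capitals span 11 bases because matches on the 2 strands overlap. They lie 71 to 61 bases before the start of Cxcl1 and 97 to 87 bases before that of Cxcl2. Of 32851 mouse promoters, 7.25% held a match on either strand within 250 bases before the start. A match is a run of letters, not a measured binding site.

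The libraries held 34552858, 55478904 and 75404660 UMIs over 1618, 4098 and 3775 cells, with medians of 3044, 3228 and 8037 UMIs per cell. Between 1 and 2 cell barcodes were shared by any pair of libraries. Droplets with 100 or fewer UMIs, which hold free RNA, carried 10.9%, 3.94% and 3.36% of all UMIs.

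The rule found 14, 16 and 33 neutrophils, which is 0.865% (0.474 to 1.45), 0.390% (0.223 to 0.633) and 0.874% (0.602 to 1.23) of all cells. The share in IDD+HTF was 0.451 times that in IDD (0.206 to 0.998). Over cells that passed no hepatocyte gate, the ratio was 0.478 and its interval spanned 1 (0.219 to 1.06). These cells included 424, 1388 and 349 that fell in no class. Mup11 was among the genes that led them, and Mup20 and Mup3 led the hepatocyte class, so some hepatocytes may remain. The shares of all cells in IDD+HID and IDD had a ratio of 1.01 (0.526 to 2.04). Among leukocytes the order was different, with 3.17% (1.75 to 5.27), 1.64% (0.942 to 2.65) and 1.99% (1.37 to 2.78), and the interval of each ratio between libraries then spanned 1.

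The gate fell in a wide gap in IDD and IDD+HTF and a narrow one in IDD+HID. The lowest neutrophils held 86.9, 174 and 74.7 UMIs of the rule genes per 10000, and the highest cells left out held 8.11, 7.50 and 42.5. That last cell of IDD+HID also carried 92 UMIs of other neutrophil markers, so there the gate passed beside a cell with neutrophil transcripts. This count is higher than in most cells inside the gate, but it is not scaled to depth. The cell held 5180 UMIs, against a median of 3052 in the neutrophils of IDD+HID. All 63 neutrophils carried at least 9 UMIs over 25 neutrophil markers that the rule did not use, with medians of 51.5, 53 and 64 per cell. Of those 25 markers, 22, 21 and 23 had a UMI.

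Defining markers of other cells were scarce in them. Over all neutrophils of a library, 8 endothelial markers summed to 0, 2 and 8 UMIs, and 11 markers of T and NK cells to 0, 1 and 6. The 8 Kupffer markers summed to 0, 5 and 6. Clec4f, Vsig4 and Cd5l are among these 8 and were limited by the rule, so their low counts are no finding. Basophil and mast cell markers were at 0 throughout. The monocyte markers summed to 5, 12 and 32 UMIs, with Cx3cr1, Ace, F13a1 and Ms4a6c at 0 in every library. In IDD+HTF 1 neutrophil held 27 of the 30 B cell UMIs and another held 16 stellate UMIs. Hepatocyte markers reached 250, 1775 and 7129 CPM (counts per 1000000 UMIs of the summed neutrophils), below the 10531, 20649 and 23378 CPM of the free droplets. Liver transcripts in these cells thus differed between libraries, as did the median mitochondrial share, at 2.26%, 3.93% and 7.10%, and their part in the differences below was not tested.

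Calprotectin transcripts were abundant. S100a8 stood at 41375, 32730 and 30795 CPM, and S100a9 at 52712, 36032 and 47720. Single neutrophils spread far more widely than the libraries did. S100a8 and S100a9 together took 66.5 UMIs per 10000 in the lowest, 1076 in the median and 1369 in the highest neutrophil of IDD. The same values were 111, 554 and 1710 in IDD+HTF and 16.6, 457 and 2025 in IDD+HID, so the 3 libraries overlapped over most of their range. Retnlg, which encodes a resistin-like secreted protein, stood at 2028, 3549 and 5433 CPM, with single cells from 0 to 342 per 10000.

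**Figure D1:**
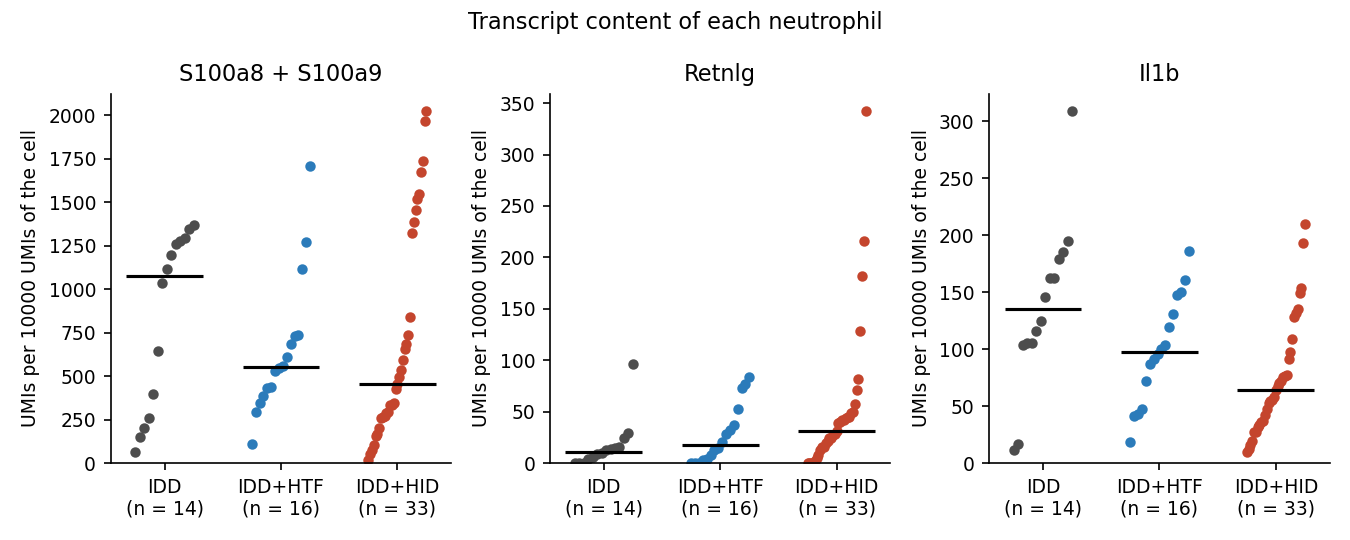
UMIs of S100a8 plus S100a9 (left), Retnlg (middle) and Il1b (right) per 10000 UMIs of each neutrophil, 1 point per cell in order of its value, by library, with the median as a bar. Cells of the 3 libraries overlap in each panel, and the Il1b medians are 135, 97.7 and 64.2.

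Among the receptors of the rule, Csf3r, the receptor of the growth factor G-CSF, stood at 2973, 3504 and 2736 CPM, and Cxcr2 at 1751, 1820 and 1725. Across the cells of a library, the summed share of S100a8 and S100a9 and that of Il1b, the gene of the cytokine interleukin 1 beta, had Spearman rho of 0.09 over 14 cells, 0.32 over 16 and -0.43 over 33. Both shares have the same cell's total as their base, and S100a8 and S100a9 helped to choose the cells, so the gate limits their range. The cells of a library come from 1 mouse, and no relation between these genes is read from the values.

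Transcripts of most primary and secondary granule genes, which immature neutrophils make, were nearly absent from all 3 libraries. Camp and Ngp, 2 genes of the secondary granules, and Elane, the elastase of the primary granules, had 0 UMIs in all 63 cells. Ltf, which encodes the iron-binding lactoferrin, had 2 UMIs, and Mpo, the myeloperoxidase, had 1. Lcn2, also on the list of secondary granule genes, was the exception, at 1084, 517 and 486 CPM. A count of 0 allows up to 83.4, 67.4 and 29.7 CPM, taking 3 counts as the limit. Genes of the later granules were present. Mmp9, the gelatinase, stood at 917 CPM (631 to 1288), 1505 (1166 to 1911) and 1448 (1222 to 1702), and Mmp8, a collagenase, at 222, 314 and 248. Mmp9 was 1.64 times higher in IDD+HTF than in IDD (1.07 to 2.57) and 1.58 times higher in IDD+HID (1.08 to 2.38).

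Cxcr4, the receptor that holds neutrophils in the marrow, stood at 1195, 1213 and 1319 CPM, and its intervals overlapped between all libraries. Cd177, a surface protein found on part of the neutrophils, had 1, 1 and 4 UMIs.

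The 15 genes that set the neutrophils furthest apart from other cells, by the smallest of the 3 library ratios, were headed by Ccr1, a chemokine receptor, at 34.8 times, followed by Mmp9 at 30.3, Mxd1, Clec4d, G0s2, Gda, Clec4e, Il1r2, S100a6, Lcn2, Pglyrp1, S100a11, Msrb1, Sorl1 and Slc16a3 at 18.5. These ratios describe a population chosen from the same counts.

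**Figure D2:**
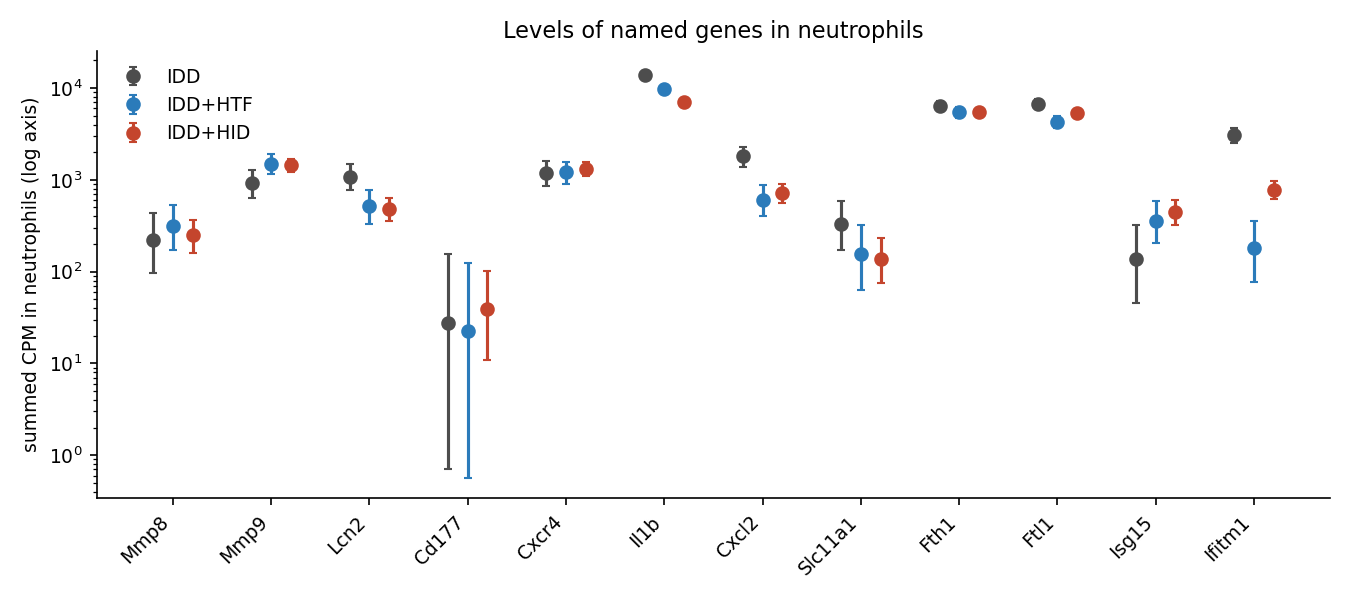
Summed level of 12 named genes in neutrophils (CPM, log axis) by library, with exact 95% Poisson intervals for counting error. Il1b steps down from 14032 in IDD to 6990 in IDD+HID, Ifitm1 is lowest in IDD+HTF at 180, and the Cxcr4 intervals overlap across libraries.

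Of 384 genes with at least 30 UMIs in the pair, 73 differed by at least 2-fold between IDD+HTF and IDD (19.0%), of which 41 were higher in IDD+HTF (10.7%) and 32 lower (8.33%). For IDD+HID against IDD, 132 of 655 did (20.2%), 77 higher (11.8%) and 55 lower (8.4%). For IDD+HID against IDD+HTF, 94 of 715 did (13.1%), 46 higher (6.43%) and 48 lower (6.71%). The median log2 ratio over all genes was 0.00, 0.04 and -0.01. The first 2 comparisons share the 14 neutrophils of IDD, so a level that is unusual there appears in both.

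Il1b, a main inflammatory cytokine gene of neutrophils, was lower in both iron-treated mice. It stood at 14032 CPM (12835 to 15311), 9704 (8811 to 10664) and 6990 (6483 to 7526). Every neutrophil carried it. The lowest, median and highest cell held 11.5, 135 and 309 per 10000 in IDD. They held 18.1, 97.7 and 186 in IDD+HTF, and 9.64, 64.2 and 210 in IDD+HID. The medians stepped down while the cells of the 3 libraries overlapped. It was 1.45 times lower in IDD+HTF than in IDD (1.27 to 1.65) and 2.01 times lower in IDD+HID (1.79 to 2.25).

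Among NF-kB targets and cytokines, 9 of 23 genes were measured between IDD+HTF and IDD, 0 were at least 2-fold higher and 3 lower (Cxcl2, Ccl4 and Nfkbia), with a median log2 ratio of -0.53. For IDD+HID against IDD 12 were measured, 0 were higher and 6 lower (Ptgs2, Il1b, Cxcl2, Bcl2a1b, Nfkbia and Ier3), with a median of -0.89. Of all genes tested, 8.33% were lower in IDD+HTF than in IDD and 8.4% in IDD+HID. For IDD+HID against IDD+HTF 11 were measured, Ccl4 was higher, Il1rn and Ier3 were lower, and the median was 0.19. In that pair 6.43% of all genes tested were higher and 6.71% lower.

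Part of this rested on a single neutrophil of IDD. That cell, with 4572 UMIs, held 50 of the 65 Cxcl2 UMIs of the library, 37 of 61 of Nfkbia (the NF-kB inhibitor that NF-kB itself induces), 43 of 70 of Acod1 (the enzyme that makes itaconate), 23 of 43 of Irf1 and all 23 of Cxcl10. Its mitochondrial share was 11.2%. It was not unusual in Il1b, of which it held 57 of 505 UMIs. Without it, Cxcl2 in the other 13 neutrophils of IDD stood at 477 CPM. The level with it was 1806 CPM, and the iron-treated mice had 607 and 714. The log2 ratio of Cxcl2 to IDD then turned from -1.57 to 0.35 in IDD+HTF and from -1.34 to 0.58 in IDD+HID. The count of lower NF-kB and cytokine genes in IDD+HTF went from 3 to 2, with Ccl4 at 5.06 times and Nfkbia at 2.00 times lower, and Il1rn was then 3.02 times higher (1.30 to 8.16). In IDD+HID it went from 6 to 3, namely Il1b, Ptgs2 and Ier3, and Bcl2a1b, whose 15 UMIs of IDD were all in that cell, could not be counted as lower. With neutrophils of at most 10% mitochondrial UMIs, which also leaves that cell out, 1 of 7 measured genes of the list was lower in IDD+HTF, and of 10 in IDD+HID 2 were lower and 2 higher.

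Il1b and Ptgs2, which encodes the prostaglandin-forming cyclooxygenase 2, did not rest on it. Ptgs2 stood at 1139, 719 and 407 CPM, was found in 9 of 14, 6 of 16 and 13 of 33 neutrophils and was 2.80 times lower in IDD+HID than in IDD (1.77 to 4.43). Without that neutrophil it was 3.21 times lower, and Il1b 2.04 times lower.

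Btg2 and Fos, of the immediate early genes that cells switch on within minutes of a stimulus, were lower in both iron-treated mice with or without that cell. Both comparisons share the neutrophils of IDD. Of 21 immediate early and heat shock genes, 14 were measured. Between IDD+HTF and IDD, 0 were at least 2-fold higher and 2 lower (Btg2 and Fos), with a median log2 ratio of -0.58. Of all genes tested, 8.33% were lower in that pair and 8.4% in IDD+HID against IDD. In IDD+HID against IDD, 0 were higher and 4 lower (Btg2, Jun, Zfp36 and Fos), with a median of -0.77, and between IDD+HID and IDD+HTF 0 passed in either direction, with a median of -0.35.

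Btg2, an antiproliferative gene, stood at 3585, 1528 and 873 CPM and was found in 14 of 14, 14 of 16 and 27 of 33 neutrophils. With each cell thinned to 500 UMIs, the expected share of neutrophils with a Btg2 UMI was 75.2%, 50.6% and 34.6%, against 15.2% of other cells in IDD and 28.3% in IDD+HID. It was 2.35 times lower in IDD+HTF than in IDD (1.74 to 3.20) and 4.11 times lower in IDD+HID (3.11 to 5.45). Fos, a subunit of the transcription factor AP-1, stood at 2556, 1056 and 644 CPM in neutrophils and was found in 11 of 14, 16 of 16 and 20 of 33. The median neutrophil held 15.7, 8.65 and 4.03 Fos UMIs per 10000, and the level was 2.42 times lower in IDD+HTF than in IDD (1.69 to 3.52) and 3.97 times lower in IDD+HID (2.86 to 5.54). In the other cells Fos went the opposite way, at 732, 1234 and 2192 CPM. Tissue digestion can itself switch on such genes, and its part in these values was not tested.

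**Figure D3:**
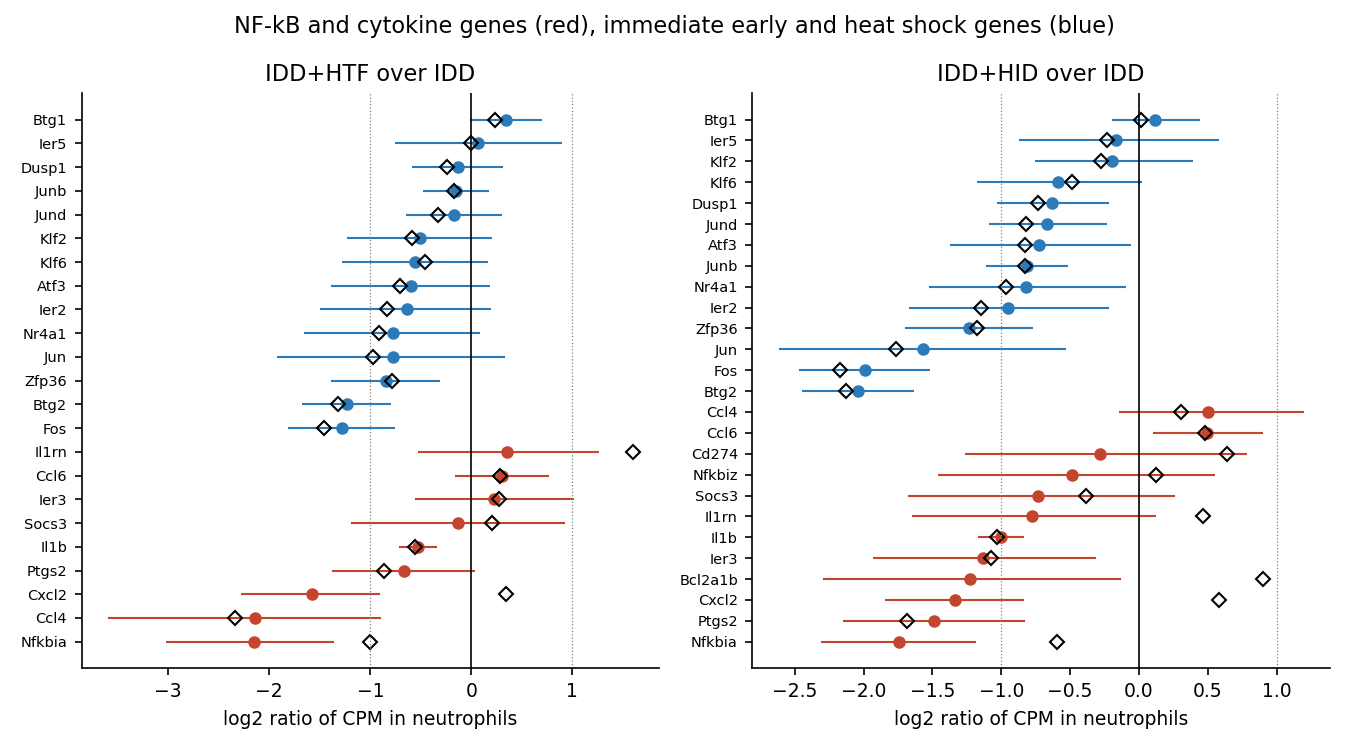
Log2 ratio of CPM in neutrophils for the measured NF-kB and cytokine genes (red) and immediate early and heat shock genes (blue), with exact 95% intervals, for IDD+HTF over IDD (left) and IDD+HID over IDD (right). Open diamonds leave out the IDD neutrophil with most Cxcl2 UMIs; Cxcl2 crosses 0 without it, and Btg2, Fos and Il1b barely move.

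Interferon-response genes split. Between IDD+HTF and IDD 9 of 23 were measured, with Slfn4 and Rsad2 higher, Ifitm1 and Irf1 lower and a median log2 ratio of 0.63. In IDD+HID against IDD 15 were measured, with Gbp2, Isg15 and Trim30a higher, Cxcl10, Ifitm1 and Irf1 lower and a median of 0.10. In IDD+HID against IDD+HTF 13 were measured, with Gbp2, Ifitm1 and Irf1 higher, none lower and a median of -0.10. Of all genes tested, 10.7% were higher and 8.33% lower in IDD+HTF than in IDD. The shares were 11.8% and 8.4% for IDD+HID against IDD, and 6.43% and 6.71% for IDD+HID against IDD+HTF. With so few genes measured, no result about the list is read from these counts. In IDD+HID 1 neutrophil held 89.6% of the Gbp2 UMIs and 1 held 51.1% of those of Isg15. In IDD the neutrophil rich in Cxcl2 held all 23 Cxcl10 UMIs and 23 of the 43 of Irf1. Without it, Cxcl10 had 0 UMIs left in IDD and could not be counted as lower. With the top neutrophil of each library left out, Gbp2 was lower in IDD+HID than in IDD+HTF, at a log2 ratio of -0.69.

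Ifitm1, a membrane protein that restricts virus entry, was the gene furthest below IDD in IDD+HTF. It stood at 3084 CPM (2537 to 3714), 180 (77.6 to 354) and 783 (620 to 976). It was found in 11 of 14, 7 of 16 and 19 of 33 neutrophils, and the highest cell of IDD held 24.3% of the library's UMIs. The ratio of IDD to IDD+HTF was 17.2 (8.41 to 40.7), and that of IDD to IDD+HID was 3.94 (2.92 to 5.32). Without the neutrophil rich in Cxcl2, Ifitm1 of IDD still stood at 2674 CPM.

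Genes of iron handling were the ones closest to the treatments, and few could be measured. Of 16, only Fth1, Ftl1 and Slc40a1 had enough UMIs, and 0 of 3 differed by 2-fold in any pair, with median log2 ratios of -0.24 and -0.22 against IDD. Fth1, the heavy chain of the iron store ferritin, stood at 6419 CPM (5618 to 7302), 5436 (4773 to 6166) and 5503 (5054 to 5980). Ftl1, the light chain, stood at 6669, 4268 and 5364 CPM, and 1 neutrophil of IDD held 30.8% of its UMIs. The interval of its ratio to IDD lay below 1 in both iron-treated mice, short of 2-fold. In IDD+HID its log2 ratio changed sign, to 0.11, without the top neutrophil of each library. Slc40a1, the iron exporter ferroportin, had a ratio of 1.62 between IDD+HTF and IDD (0.843 to 3.23) and of 1.14 between IDD+HID and IDD (0.629 to 2.20), and the other cells held more of it per UMI than the neutrophils in IDD, at 573 against 417 CPM. Slc11a1, a metal transporter of phagosomes, stood at 333, 157 and 139 CPM with overlapping intervals. Lcn2, the measured gene of the secondary granules, stood at 1084 CPM (771 to 1481), 517 (328 to 775) and 486 (359 to 642), with 43.6% of the IDD UMIs in the neutrophil rich in Cxcl2 and 700 CPM without it.

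Receptors and effector systems were read against the shares of all genes past 2-fold. These were 19.0% in IDD+HTF and 20.2% in IDD+HID against IDD, and 13.1% between IDD+HID and IDD+HTF. Among receptors of attractants and growth factors, Il1r2, the decoy receptor of interleukin 1, was the 1 of 6 measured genes lower in IDD+HTF than in IDD, and Ptafr, the receptor of platelet-activating factor, the 1 of 7 lower in IDD+HID, and the list medians were -0.43 and -0.61. Il1r2 stood at 1417, 539 and 932 CPM and was found in 12 of 14, 12 of 16 and 26 of 33 neutrophils. Among pattern recognition and Fc receptors, Cd14, a receptor of bacterial lipopolysaccharide, was higher than in IDD in both IDD+HTF, at 2.02 times (1.11 to 3.87), and IDD+HID, at 2.16 times (1.27 to 3.93). Trem1, which amplifies inflammatory signals, was 2.74 times lower in IDD+HTF (1.41 to 5.57) and 2.23 times lower in IDD+HID (1.34 to 3.66). Fcgr3 was lower in IDD+HTF and Clec4e in IDD+HID. Of the 9 and 10 genes measured against IDD, 1 was thus higher and 2 lower in each pair, with medians of -0.42 and -0.24. Pecam1, an adhesion molecule used in leaving vessels, was 3.70 times higher in IDD+HTF than in IDD (1.60 to 9.92) and 2.07 times lower in IDD+HID than in IDD+HTF (1.24 to 3.45). It was the 1 of 7 and 1 of 9 adhesion genes past 2-fold in those pairs, and none of 9 passed between IDD+HID and IDD. None of the measured genes of the NADPH oxidase, the gelatinase granules, the granulocyte transcription factors, NRF2 targets or survival genes differed by 2-fold in any pair. Of glycolysis genes, Pkm was lower in IDD+HID than in IDD and Aldoa lower in IDD+HID than in IDD+HTF. Primary granule genes and metallothioneins were not measurable, and the 1 measured cell cycle gene did not pass.

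The genes furthest above IDD in IDD+HID were Alb, Ttr, Apoe, Apoa1, Fgb and Apoa2, products of other liver cells. Alb stood at 139, 629 and 3897 CPM, against 4675, 7965 and 11366 CPM in free droplets, and 2 neutrophils held 198 of the 393 UMIs of IDD+HID. The furthest below, by the bound of the interval nearest 1, were Alkbh5, Btg2, Ifitm1, Acod1, Fos and Cstb. Alkbh5, an RNA demethylase, stood at 973 CPM in the neutrophils of IDD and 119 in those of IDD+HID, and the free droplets of the same libraries held 7473 and 592 CPM, so its level was below that of free RNA in both. In IDD+HTF the furthest above IDD were Cd74, Apoe, Gm6899, Asprv1, Apobec3 and Rps21. There 1 neutrophil held 93.8% of the Cd74 UMIs, and 1 held 52.1% of those of Rps21. Apoe and Gm6899 stood at 1393 and 2651 CPM in the neutrophils of IDD+HTF, below the 10725 and 8923 CPM of its free droplets. Asprv1, a retroviral-like protease, was 4.74 times higher there (2.10 to 12.5). The furthest below were Ifitm1, Acod1, Marcksl1, Irf1, Cstb and Nfkbia. The neutrophil of IDD rich in Cxcl2 held 60.7% of the Marcksl1 UMIs, and another held 70.6% of those of Cstb.

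Against IDD+HTF, the genes furthest above in IDD+HID were Alb, Ccl4, Ccrl2, Ttr, Gc and Ifitm1. Ttr and Gc stood at 704 and 387 CPM in the neutrophils of IDD+HID, below the 2580 and 1148 CPM of its free droplets. Ccl4, a chemokine of monocytes and lymphocytes, stood at 157 CPM in IDD+HTF and 982 in IDD+HID, where 1 neutrophil held 43.4% of its UMIs. Ccrl2, a chemerin-binding receptor, was spread over 22 of 33 neutrophils of IDD+HID and was 5.66 times higher than in IDD+HTF (2.49 to 15.9). Gm10076, Rps27, Gm6899, Gm37357, Rpl37 and Cd74 were furthest below, and the log2 ratio of Cd74 turned to 0.41 without the top neutrophil of each library. The highest neutrophil of IDD+HTF for each gene held 60.0% of the Gm37357 UMIs, 48.1% of Gm10076 and 39.4% of Rps27. For Gm6899 and Rpl37 it held 28.0% and 23.9%. Gm6899 and Gm37357 stood at 2651 and 899 CPM in the neutrophils of IDD+HTF, below the 8923 and 1113 CPM of its free droplets. Gm genes and ribosomal protein genes have near-identical copies, so their counts are uncertain.

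The levels of the neutrophil attractants in the other cells were set beside the neutrophil counts and shares. Cxcl1 stood at 18.3 CPM (15.2 to 21.8), 37.8 (35.2 to 40.5) and 66.4 (63.7 to 69.1) in the other cells. It was 2.07 times higher in IDD+HTF than in IDD (1.71 to 2.52) and 3.63 times higher in IDD+HID (3.03 to 4.39). Cxcl2 stood at 44.7, 50.0 and 263 CPM, with a ratio of 1.12 between IDD+HTF and IDD (0.984 to 1.28) and of 5.88 between IDD+HID and IDD (5.24 to 6.62). The counts of 14, 16 and 33 neutrophils stood in the same order as both chemokines, but the number of cells captured also differed. The shares of all cells, 0.865%, 0.390% and 0.874%, did not stand in that order. Over 3 mice no relation between the 2 quantities can be tested.

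Kupffer cells, the macrophages of the sinusoids, held most of the Cxcl2. In cells with Kupffer markers it stood at 163, 119 and 897 CPM, and after thinning to 500 UMIs 4.29%, 3.86% and 20.0% of them had a UMI. B cells, which should lack it, had thinned shares of at most 0.341%. The Kupffer cells accounted for 66.3%, 75.3% and 93.8% of all Cxcl2 UMIs. Without them, the log2 ratio of Cxcl2 between IDD+HID and IDD was 0.84, against 2.56 with them. The neutrophils themselves gave 17.7%, 2.45% and 0.781%, and they had 0 UMIs of Cxcl1 in every library.

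Cxcl1 came from other cells too. In cells with endothelial markers it stood at 22.7, 74.1 and 71.2 CPM, in those with stellate markers at 50.9, 101 and 101, and in those with Kupffer markers at 20.1, 17.6 and 75.3. The few cells with cholangiocyte markers (6, 9 and 15) had the highest levels of the classes described here, at 109, 435 and 565 CPM. The ratio of IDD+HTF to IDD was 3.27 in endothelial cells (2.36 to 4.65), 1.98 in stellate cells (1.32 to 3.06), 4.01 in cholangiocytes (1.84 to 9.97) and 2.66 in cells of no class (1.12 to 7.68). In Kupffer cells it was 0.879 (0.586 to 1.36). Icam1, the endothelial ligand that lets neutrophils stop, stood at 78.1, 103 and 131 CPM over the other cells and at 96.0, 217 and 213 in endothelial cells, where the ratio of IDD+HID to IDD+HTF was 0.984 (0.923 to 1.05). Sele, which encodes E-selectin, stood at 10.8, 10.7 and 7.30 CPM, and Cxcl5, another Cxcr2 ligand, at 1.47, 0.790 and 1.18.

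**Figure D4:**
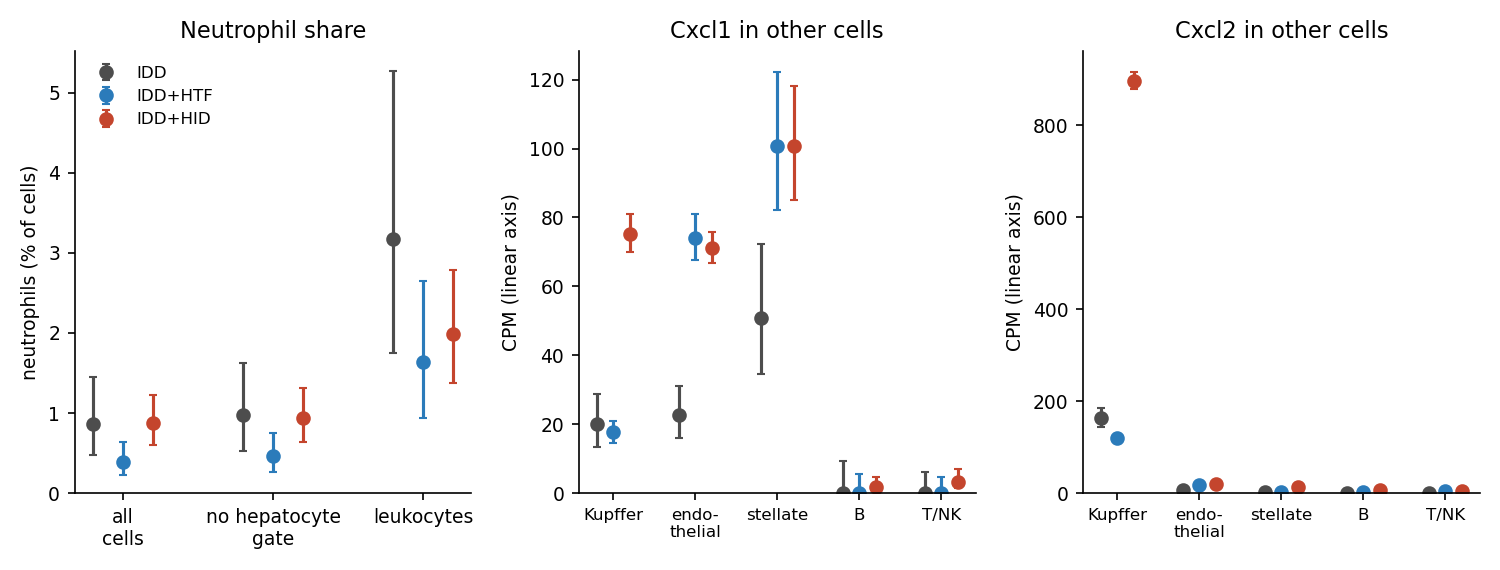
Neutrophils as a percent of all cells, of cells that passed no hepatocyte gate and of leukocytes (left, exact 95% intervals), and Cxcl1 (middle) and Cxcl2 (right) in 5 marker classes of other cells (CPM, linear axes, exact Poisson intervals), by library. Cxcl2 in Kupffer cells reaches 897 in IDD+HID against 163 in IDD, while the neutrophil shares of all cells are 0.874% and 0.865%.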

How the data were processed

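The authors deposited raw UMI counts for each gene in each barcode, not normalized, from 10x Genomics 3' droplet libraries, per the labels. The submitters' processing notes name Seurat 4 and GRCm38, and the aligner is not given in the sources used here. Among 55421 gene identifiers, 55240 got a symbol from GENCODE M21. The members and all gene lists were chosen with earlier results of these data known.

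Counts were summed over the neutrophils of a library and divided by their total (35988, 44516 and 100859 UMIs). Genes with at least 30 UMIs in a pair, without mitochondrial and rule genes, were compared as ratios of CPM with conditional binomial 95% intervals, and a count of 0 was set to 3. Levels have Poisson and shares Clopper-Pearson intervals. Other cells were classed by marker sums per 10000 UMIs. No doublet caller was run, and 1 neutrophil passed the gate of another class.

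Named genes were a fixed set (1 of which is not reported here), the 6 highest and 6 lowest per pair by the interval bound nearest 1, 15 leading genes (20 CPM added, at least 10 UMIs in each library), and up to 4 per list. The neutrophil with most Cxcl2 was singled out after its values were seen. Ratios were tested on simulated Poisson counts per gene and library. Those counts lack the clumping of UMIs in single neutrophils, so the intervals were not tested for it. Python 3.11.15, scipy 1.17.1 and edgeR 4.0.16 (TMM factors only) were used.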

Additional observations from a re-analysis of the deposited data

Results flagged for a closer look

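Genes of the NF-kB and cytokine list were set beside the same genes in all other cells, and those were singled out whose ratio lay on opposite sides of 1 in neutrophils and in the other cells, with neither interval reaching 1. The difference between the cell types was not tested, and each group is 1 mouse. Between IDD+HID and IDD, Il1b had a log2 ratio of -1.01 in neutrophils and 1.62 in the other cells, where cells with Kupffer markers went from 509 to 1392 CPM and held 76.6% and 85.6% of the Il1b UMIs. Cells with monocyte markers (8, 19 and 49 cells) held 2165, 235 and 1049 CPM of Il1b. Like the neutrophils they were lower in both iron-treated mice than in IDD, but unlike them they were higher in IDD+HID than in IDD+HTF. Ptgs2 had -1.49 against 0.53, but Kupffer cells were lower too, at 13.4 CPM in IDD and 7.89 in IDD+HID, and 102 Ptgs2 UMIs of IDD+HID came from its 49 monocyte-marker cells, which had 0 in IDD. Ier3 had -1.13 against 1.41, Cxcl2 -1.34 against 2.56, Nfkbia -1.75 against 0.91 and Bcl2a1b -1.22 against 0.58. The monocyte-marker cells of IDD and IDD+HID held 703 and 501 CPM of Nfkbia and 365 and 181 of Bcl2a1b. They went the other way from the neutrophils for Ier3, at 56.2 and 288 CPM, from 2 and 142 UMIs. For Cxcl2 they held 0 and 52.8 CPM. A count of 0 over the 8 cells of IDD allowed up to 104 CPM, so no direction is read there. Without the IDD neutrophil richest in Cxcl2, the neutrophil log2 ratio of Cxcl2 was 0.58. That of Nfkbia was -0.60, a ratio of 0.662 whose interval then reached 1 (0.400 to 1.12). Bcl2a1b, with 0 UMIs left in IDD, was at least 1.87-fold higher in IDD+HID (taking 3 counts over the group for 0). The opposite sign of Cxcl2 and Bcl2a1b thus rests on 1 cell, and Nfkbia would not have been singled out in this pair without it. Between IDD+HTF and IDD, Il1b had -0.53 against 0.61 and Nfkbia -2.15 against 0.27. Between IDD+HID and IDD+HTF, Il1b had -0.47 against 1.01 and Ier3 -1.35 against 0.61. Il1b lay on opposite sides in all 3 pairs, of which any 2 share a library.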

How the results depend on the processing

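The shares of all cells stayed within their intervals under the other limits on cells, gates and doublets that were run. Of leukocytes they were 3.17%, 1.64% and 1.99% (IDD, IDD+HTF, IDD+HID), and 3.37%, 1.78% and 2.13% without the cells gated as plasmacytoid dendritic, which pancreatic enzyme genes led, a choice made after seeing the data. With at least 20 UMIs per pair, 132 genes (IDD+HTF over IDD), 257 (IDD+HID over IDD) and 198 (IDD+HID over IDD+HTF) differed 2-fold, and with at least 100 UMIs 7, 26 and 18, since other numbers of genes were tested. Of the lower NF-kB and cytokine genes in IDD+HTF, 0 were left with at least 100 UMIs. In IDD+HID 3 were left with at least 100 UMIs, with TMM factors or with a gate of 3 UMIs, and 2 with the mean of per-cell shares. Ftl1 in IDD+HID over IDD changed sign, to a log2 ratio of 0.0056 with TMM factors and 0.10 with a gate of 10 UMIs.

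These alternatives were also chosen after seeing the data. With neutrophils of at most 10% mitochondrial UMIs (12, 14 and 21 cells), 85 genes differed between IDD+HID and IDD, and 1 and 2 NF-kB and cytokine genes were lower in IDD+HTF and IDD+HID. Leaving out each gene's top neutrophil per library left 1 in IDD+HID, and leaving out the IDD neutrophil richest in Cxcl2 left 3. Log2 ratios changed sign for Cxcl2 in IDD+HTF over IDD (0.45 with at most 10% mitochondrial UMIs, 0.35 without that neutrophil) and in IDD+HID over IDD (1.12, 0.25 without the top neutrophils, 0.58). In IDD+HID over IDD, Marcksl1 had 0.26 with at most 10% mitochondrial UMIs, and Ftl1 had 0.11 without the top neutrophils. Without the top neutrophils, Cd74 had 0.41 and Gbp2 -0.69 in IDD+HID over IDD+HTF. The count of lower immediate early genes was 2 in IDD+HTF and 3 to 6 in IDD+HID under the alternatives run. Where no construction shows it, the cause was not tested.

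In the other cells, log2 ratios of Cxcl1 without Kupffer cells, also an alternative chosen after seeing the data, were 1.41 in IDD+HTF over IDD and 0.41 in IDD+HID over IDD+HTF. With per-cell means they were 1.52 in IDD+HID over IDD and 0.65 in IDD+HID over IDD+HTF, where TMM gave 0.66 and median-of-ratios 0.68. For Cxcl2 in IDD+HTF over IDD they were -0.42 with per-cell means, 0.41 with TMM, 0.43 with median-of-ratios and 0.59 without Kupffer cells. For Cxcl2 without Kupffer cells they were 0.84 in IDD+HID over IDD and 0.25 in IDD+HID over IDD+HTF, where per-cell means gave 2.83, TMM 2.24 and median-of-ratios 2.26. No paired analysis was possible because each group is 1 mouse and the groups share a single replicate number. The 14, 16 and 33 cells limit every neutrophil value, and differences between mice cannot be told apart from the treatments.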
